A study of Mus musculus with 8 samples.

Results

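Small nucleolar RNA (snoRNA) genes were examined in mouse embryonic stem cells before and after differentiation, in wild-type (WT) cells and in cells carrying the 6A mutant of HNRNPK, an RNA-binding protein. The labels do not say which residues the 6A mutant changes. The members were all rows of the gene tables named Snord (box C/D class) or Snora (box H/ACA class) followed by a number, with at least 40 counts summed over all 8 libraries. They numbered 93 of 24421 rows, with 61 of 74 Snord rows and 32 of 36 Snora rows. The members were thus chosen by their counts summed over all groups, so their overall abundance is given as a description. The group in which a member was high played no part in the choice.

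Each of the 4 groups had 2 libraries: WT at day 0, 6A at day 0, WT at day 14 and 6A at day 14. All cells came from a hybrid line with CAST/Ei and 129/Sv/Jae genomes, so the 6A cells and the WT cells share that background. Day 0 cells were grown with LIF on irradiated fibroblast feeders and collected after the feeders had been taken away. Day 14 cells had been kept without LIF, first in suspension as embryoid bodies and then attached to gelatin. Total RNA was depleted of ribosomal RNA and sequenced with paired reads of 150 bases.

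Most mammalian snoRNAs are cut from introns of host genes and act in the nucleolus as guides for chemical marks on ribosomal RNA. Box C/D snoRNAs carry the short boxes C and D, bind the methyltransferase fibrillarin and guide ribose methylation. Box H/ACA snoRNAs fold into hairpins followed by boxes H and ACA, bind the pseudouridine synthase dyskerin and guide the conversion of uridine to pseudouridine. A few members of both classes serve in cleavage of the ribosomal RNA precursor instead of, or beside, its modification.

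The sequences below are those of the genes on which the results turn, from the GENCODE M21 transcripts, in the mm10 build. Capitals mark box C (TGATGA within the first 20 bases), box D (CTGA within the last 20) or the ACA near the 3′ end. Snord33 (chr7:45126864-45126947, minus strand), Snord34 (chr7:45126601-45126670, minus), Snord52 (chr17:34950952-34951017, minus) and Snord49b (chr11:62603079-62603150, plus) are short box C/D genes whose counts fell over differentiation.
Snord33: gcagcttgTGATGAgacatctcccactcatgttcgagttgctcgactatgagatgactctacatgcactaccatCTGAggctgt
Snord34: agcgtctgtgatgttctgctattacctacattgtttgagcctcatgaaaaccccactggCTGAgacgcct
Snord52: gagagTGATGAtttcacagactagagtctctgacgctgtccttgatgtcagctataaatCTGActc
Snord49b: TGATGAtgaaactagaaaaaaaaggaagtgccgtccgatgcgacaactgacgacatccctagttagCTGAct
Snord22 (chr19:8725866-8725991, plus), Snord15b (chr7:99479563-99479707, minus) and Snord17 (chr2:144265979-144266216, minus) are the 3 most abundant box C/D genes. They are also among the longest, and their counts did not change past the test.
Snord22: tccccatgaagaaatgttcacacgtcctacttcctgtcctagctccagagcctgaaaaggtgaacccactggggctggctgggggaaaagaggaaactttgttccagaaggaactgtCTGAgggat
Snord15b: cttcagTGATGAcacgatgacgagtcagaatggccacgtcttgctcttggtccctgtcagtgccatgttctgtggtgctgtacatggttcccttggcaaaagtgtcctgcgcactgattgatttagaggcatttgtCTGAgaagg
Snord17: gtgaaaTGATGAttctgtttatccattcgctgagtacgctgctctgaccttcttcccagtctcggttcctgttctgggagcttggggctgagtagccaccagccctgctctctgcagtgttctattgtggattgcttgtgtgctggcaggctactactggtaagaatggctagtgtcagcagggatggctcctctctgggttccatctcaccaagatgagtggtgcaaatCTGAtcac
Snora61 (chr4:132310240-132310369, plus) is the box H/ACA gene with the smallest p over differentiation in WT. Snora64 (chr17:24720772-24720905, plus) is an abundant member of that class that did not pass the test.
Snora61: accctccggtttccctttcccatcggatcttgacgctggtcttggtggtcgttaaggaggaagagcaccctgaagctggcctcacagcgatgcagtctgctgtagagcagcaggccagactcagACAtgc
Snora64: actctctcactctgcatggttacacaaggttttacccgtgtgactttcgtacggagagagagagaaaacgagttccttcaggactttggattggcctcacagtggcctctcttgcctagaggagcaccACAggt

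The annotation held 90 of the 93 members under a unique symbol. The other three were Snord58b, which had no entry, and Snora43 and Snora16a, whose symbols named more than 1 gene. Snord43 is annotated there as a microRNA gene, so it has a length but no snoRNA sequence. Box C/D members were short, with a median length of 78.5 bases (64 to 238, n = 60), and box H/ACA members had a median of 132 bases (127 to 196, n = 30). Box D was found in 57 of 59 Snord members with a sequence and the exact letters of box C in 38 of 59, or 64.4%, against 71.4% of all 98 annotated Snord genes. The ACA box was found in 28 of 30 Snora members, or 93.3%, against 95.2% of all 42 annotated Snora genes.

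Nearly every placed member lay in a host gene on its own strand. Among Snord members, 33 lay wholly in an intron, 26 overlapped an exon of any annotated host transcript, and Snord104 had no host. For Snora members the numbers were 12, 17 and 1, the last being Snora17. The tables held 63 of these hosts, which carried 85 members. Ribosomal protein genes were 20 of the 63 hosts and held 28 members. The sources used here do not say whether reads of unspliced host RNA were counted for a member, and where member and host overlap their reads cannot be told apart. For 11 of the 89 members with a sequence, at least 1 other annotated snoRNA gene shared much of it, so reads may be split between copies. They were Snora5c, Snora21, Snora30, Snora33, Snora41, Snora65, Snora75, Snora81, Snord1b, Snord1c and Snord93.

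Libraries held 8146684 to 15540163 counts, of which 15700 genes passed the minimum of 40 summed counts. Hnrnpk itself, the mutated gene, stood at 794 ± 121 CPM (counts per 1000000 counts, with library totals scaled by the trimmed mean of M values, TMM; SD, n = 2) in WT and 531 ± 7.4 in 6A at day 0, and at 485 ± 15 and 367 ± 26 at day 14. It was lower in 6A on both days (adjusted p = 0.038 and 0.045, edgeR quasi-likelihood test with Benjamini-Hochberg adjustment). Summed levels of several genes are in CPM of the plain library total. The 7 pluripotency genes examined summed to 3945 to 4084 CPM at day 0. At day 14 they summed to 375 and 387 in WT and to 501 and 504 in 6A, with 4 of 7 called higher in 6A. The 4 Y-linked genes, included as possible markers of leftover feeder cells, summed to 26.6 and 26.1 CPM in WT and to 40.9 and 45.2 in 6A at day 0, with none called, and to at most 0.101 at day 14. Of 5 fibroblast genes, Lox and Postn were called higher in 6A at day 0. Heart muscle genes rose to 1366 and 1607 CPM in WT at day 14 and to 226 and 219 in 6A, and all 5 were called lower in 6A. On that day 4 of 5 neural genes were also called lower in 6A and 5 of 5 blood genes higher. The part of cell makeup in the results below was not tested. In bulk RNA, fewer cells of a type and less RNA per cell cannot be told apart.

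snoRNA counts were a small and uneven share of each library. Box C/D members with a length under 100 bases (51 genes) summed to 289 and 219 CPM in the 2 WT libraries at day 0 and to 233 and 252 in 6A. At day 14 the sums were 73.6 and 77.7 in WT and 75.9 and 79.8 in 6A. All 4 day 14 libraries therefore lay below all 4 day 0 libraries, and the genotypes overlapped on both days. The 9 box C/D members of 100 bases or more summed to 386 and 197 CPM in WT at day 0, 219 and 222 in 6A at day 0, 278 and 213 in WT at day 14, and 279 and 165 in 6A at day 14. These values overlapped across all groups.

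Box H/ACA members summed to 1296 and 479 CPM in the WT libraries at day 0 and to 685 and 754 in 6A. At day 14 they summed to 388 and 345 in WT and to 502 and 348 in 6A. The lowest day 0 library, WT replicate 2, lay below the highest day 14 library, 6A replicate 1. On group means the sum was 887 ± 577 (SD, n = 2), 720 ± 48.4, 367 ± 29.8 and 425 ± 109 for WT day 0, 6A day 0, WT day 14 and 6A day 14. The spread between the WT libraries at day 0 was larger than the difference between the genotypes.

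**Figure D1:**
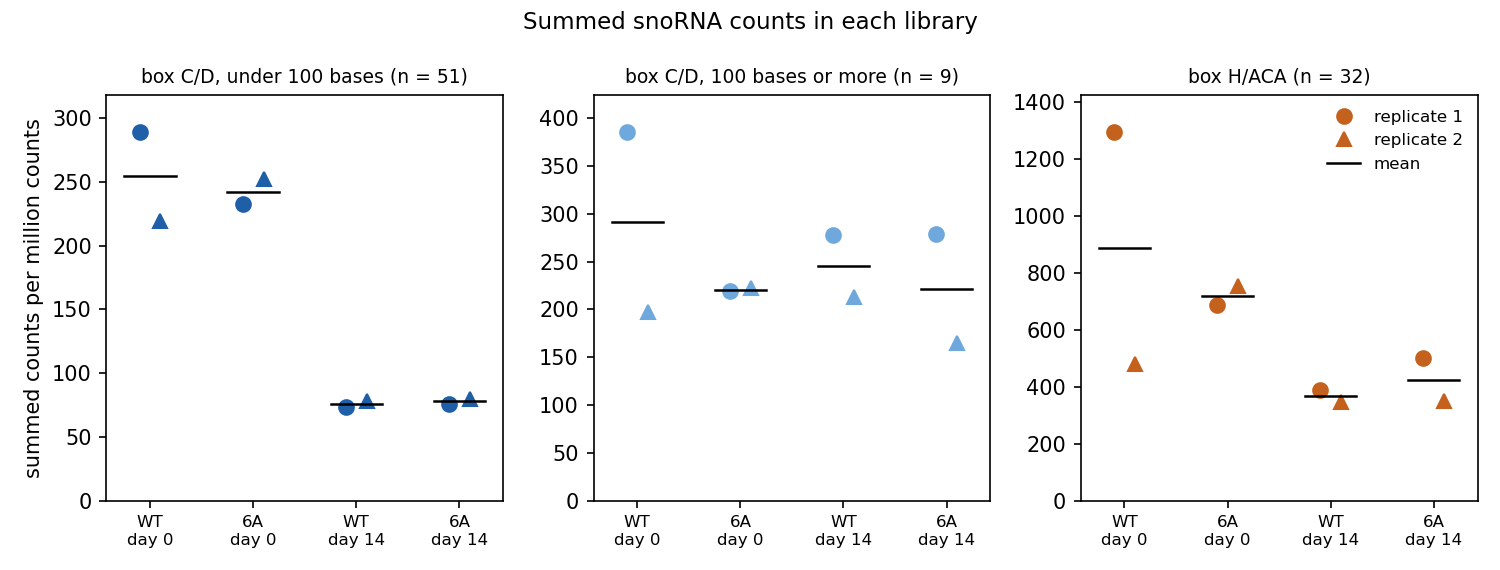
Summed counts in CPM of the library total (vertical axis) for short box C/D, long box C/D and box H/ACA genes in each library, by genotype and day (horizontal axis); circles are replicate 1, triangles replicate 2 and bars the mean of 2. Short box C/D sums fell from 219 to 289 at day 0 to 73.6 to 79.8 at day 14, while the long box C/D sums overlapped and WT day 0 replicate 1 stood at 1296 for box H/ACA.

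The libraries of WT at day 0 stood apart from each other in their snoRNA content. All 32 Snora members were higher in replicate 1 than in replicate 2, with a median difference of 1.4 on the log2(CPM + 0.5) scale, against -0.02 over all genes tested. Box C/D members of 100 bases or more were higher there in 8 of 9 cases (median 0.63) and shorter ones in 35 of 51 (median 0.29). Other small structural RNAs shared the gap. The minor spliceosome RNA Rnu11 stood at 147 and 21.4 CPM in these libraries, Rnu12 at 263 and 58.1, and the vault RNA Vaultrc5 at 262 and 84.1. Host genes of members had a median difference of 0.10, and 128 microRNA rows one of -0.34. The 7 pluripotency genes summed to 4076 and 3945 CPM in these libraries, and Pou5f1 alone stood at 199 and 546. A gap also appeared in 6A at day 14. For Snora it was smaller, with 31 of 32 members higher in replicate 1 (median 0.58). For box C/D members of 100 bases or more the median was larger than in WT at day 0, with 8 of 9 higher (median 0.83). The ratio of their summed counts, replicate 1 over replicate 2, was smaller, at 1.69 against 1.96 in WT at day 0. Shorter box C/D members were higher in 24 of 51 cases (median -0.08). Replicate 1 was also higher in WT at day 14 for 26 of 32 Snora (median 0.21) and 6 of 9 longer box C/D members (median 0.25). For shorter ones it was higher in 21 of 51 (median -0.10). The numbers for 6A at day 0 were 11 of 32 (median -0.11), 5 of 9 (median 0.04) and 20 of 51 (median -0.07). The cause of these gaps was not tested.

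**Figure D2:**
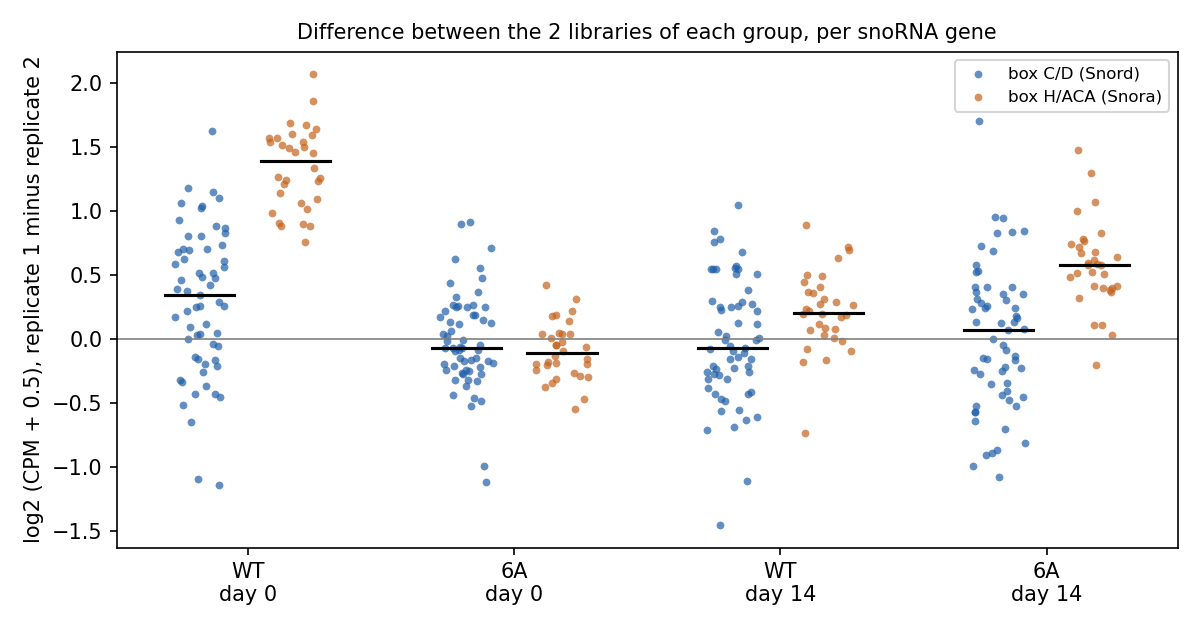
Difference in log2(CPM + 0.5) between replicate 1 and replicate 2 (vertical axis) for every Snord and Snora member in each group (horizontal axis); each point is a gene and bars are medians. All 32 Snora members lie above 0 in WT at day 0, with a median of 1.4, and 31 of 32 do so in 6A at day 14, with a median of 0.58.

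Abundance was concentrated in a few genes, most of them long. Snord17, Snord22, Snord15b and Snord15a held 55.4% of all Snord counts. Per kilobase of annotated length, the median Snora member stood above the median Snord member in every group, at 120 against 37.2 CPM per kilobase in WT at day 0 and 44.0 against 14.2 in WT at day 14. The 6A medians were 99.8 and 41.8 at day 0 and 52.8 and 15.9 at day 14. Median lengths were 78.5 bases for Snord and 132 for Snora members, both under the length of a sequencing read. A part of insert length in this class difference was not tested. Nor was it tested whether the CPM per kilobase scale reflects numbers of molecules. On that scale the most abundant members of the classes overlapped: Snora81 averaged 489 CPM per kilobase over all libraries, Snord22 488, Snord17 431, Snora64 398, Snora74a 395, Snora78 359, Snord15b 315, Snora23 290, Snord15a 184, Snord33 180 and Snord34 147.

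Over differentiation in WT cells, counts of short box C/D genes fell. Of 61 Snord members, 41 were called lower at day 14 and 1, Snord123, higher; over all genes tested 36.4% were called lower and 37.7% higher, 74.1% in all. A gene was called at an adjusted p under 0.05 in the edgeR quasi-likelihood test, adjusted over all 15700 genes. The median log2 fold change of Snord members was -1.61, against 0.03 over all genes. In 6A cells 40 Snord members were called lower and none higher, against 36.1% and 34.9% of all genes (70.9% in all), with a median of -1.78 against -0.03. DESeq2 called 33 lower in WT and 32 in 6A. The libraries of the WT comparison and of the 6A comparison are separate, and 37 Snord members were called lower in both, which is 90.2% of the WT list and 92.5% of the 6A list. Over all genes tested the shares were close to these, at 87.4% and 88.3%.

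Snord33 and Snord34 lie in the ribosomal protein gene Rpl13a, whose snoRNAs are also known from the cellular response to lipid excess. Snord33 stood at 32.2 and 22.4 CPM in WT at day 0, 21.0 and 24.9 in 6A at day 0, 6.04 and 4.51 in WT at day 14, and 5.23 and 4.74 in 6A at day 14. Every day 14 library was lower than every day 0 library, and the genotypes overlapped on both days. Its log2 fold change was -2.38 ± 0.22 (SE) in WT (adjusted p = 3.3e-07, edgeR) and -2.20 ± 0.22 in 6A (adjusted p = 8.5e-07). Snord34 went from 24.3 and 13.7 CPM to 2.21 and 3.25 in WT, and from 14.4 and 18.1 to 2.90 and 3.29 in 6A. The log2 fold changes were -2.73 ± 0.31 and -2.39 ± 0.30. The other two members of this host, Snord32a and Snord35a, were called lower in both genotypes as well, at -1.48 ± 0.30 and -2.24 ± 0.67 in WT and at -1.88 ± 0.31 and -1.60 ± 0.57 in 6A.

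The smallest adjusted p among Snord members in WT belonged to Snord100, in the ribosomal protein gene Rps12. It stood at 15.1 and 12.5 CPM in WT at day 0 and 2.32 and 2.61 at day 14, and at 11.2 and 11.8 and then 2.81 and 2.999 in 6A. All day 14 values were below all day 0 values, and the log2 fold change was -2.45 ± 0.23 in WT (adjusted p = 2.4e-07, edgeR) and -1.99 ± 0.22 in 6A. In 6A the smallest adjusted p belonged to Snord52, in the noncoding host 1110038B12Rik. Snord52 went from 9.02 and 10.2 CPM to 1.74 and 1.66 in WT and from 8.09 and 9.71 to 1.55 and 0.871 in 6A. Its log2 fold change was -2.50 ± 0.27 in WT and -2.87 ± 0.29 in 6A (adjusted p = 7.8e-07, edgeR).

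Snord42b, from the ribosomal protein gene Rpl23a, fell in the same way, from 8.15 and 9.52 CPM to 1.05 and 1.66 in WT and from 8.94 and 9.51 to 2.03 and 1.64 in 6A. Snord49a and Snord49b share the noncoding host 2410006H16Rik. Snord49b stood at 18.9 and 11.1 CPM in WT at day 0, 11.2 and 14.2 in 6A at day 0, 2.21 and 1.82 in WT at day 14 and 3.58 and 2.03 in 6A at day 14. Again the days did not overlap. Its log2 fold change was -2.88 ± 0.33 in WT and -2.18 ± 0.31 in 6A, and that of Snord49a was -2.74 ± 0.34 and -2.66 ± 0.34.

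Snord123 was the exception in WT. It lies in an intron of Snhg18, a noncoding host, and had 1 and 2 counts in the WT libraries at day 0 and 7 and 10 at day 14, a log2 fold change of 2.48 ± 0.76 (adjusted p = 0.0092, edgeR). In 6A it had 4 and 3 counts at day 0 and 5 and 9 at day 14 (1.33 ± 0.66, adjusted p = 0.084). It was 1 of the 2 members closest to the minimum, and DESeq2 called no Snord member higher. Its host Snhg18 rose in both genotypes, by 1.78 ± 0.21 in WT and 1.55 ± 0.20 in 6A on the log2 scale.

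Of the long box C/D genes, only Snord43 passed the test. A division at 100 bases was chosen after the values were seen and was therefore not tested. With it, 40 of 51 shorter members were called lower in WT and 38 of 51 in 6A, with medians of -1.89 and -1.93. The share of all genes tested that was called lower was 36.4% in WT and 36.1% in 6A. Of the 9 longer members 1 was called lower in each genotype, and the medians were -0.37 and 0.04. The 1 called was Snord43, at 108 bases the shortest of the 9. That length is of an entry annotated as a microRNA gene, so the place of Snord43 among the longer members is uncertain. All 4 day 14 libraries lay below all 4 day 0 libraries for 39 of the 51 shorter and 1 of the 9 longer members, against 35.1% of all genes tested. Across the 60 Snord members of known length, length and log2 fold change had a Spearman rho of 0.36 in each genotype, a description over genes that share libraries. All 51 shorter and 8 of the 9 longer members are shorter than 1 sequencing read of 150 bases, and a part of insert length in the difference was not tested.

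Snord17, in an intron of the sorting nexin gene Snx5, was the most abundant Snord member and the longest. It stood at 157 and 96.6 CPM in WT at day 0, 106 and 96.3 in 6A at day 0, 113 and 76.0 in WT at day 14, and 114 and 62.8 in 6A at day 14. The groups overlapped, and the log2 fold change over days was -0.42 ± 0.37 in WT (adjusted p = 0.34, edgeR) and -0.19 ± 0.37 in 6A (adjusted p = 0.66). Snord22, known for its part in processing of the small-subunit ribosomal RNA, had 108 and 51.4 CPM in WT at day 0, 49.996 and 59.1 in 6A at day 0, 63.8 and 58.8 in WT at day 14 and 57.4 and 43.2 in 6A at day 14. It also overlapped between days, with differences of -0.37 ± 0.33 and -0.12 ± 0.33.

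Snord15b and Snord15a both lie in the ribosomal protein gene Rps3. Snord15b had 84.7 and 27.1 CPM in WT at day 0, 42.5 and 37.2 in 6A at day 0, 52.6 and 36.7 in WT at day 14 and 56.0 and 28.7 in 6A at day 14. The highest and the lowest of these 8 values came from the same group, WT at day 0. The differences over days were -0.30 ± 0.64 in WT and 0.09 ± 0.64 in 6A for Snord15b, and -0.63 ± 0.46 and 0.04 ± 0.46 for Snord15a.

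**Figure D3:**
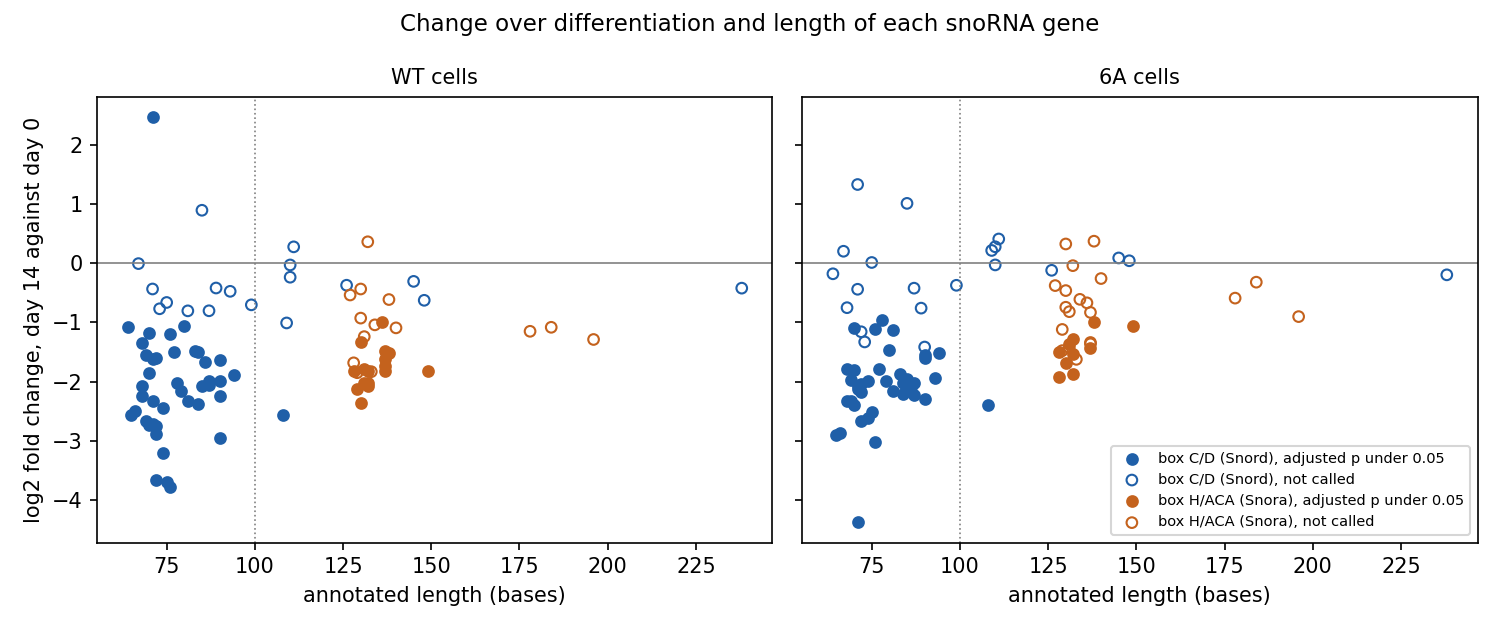
Log2 fold change at day 14 against day 0 (vertical axis) by annotated length in bases (horizontal axis) for WT (left) and 6A (right); blue points are Snord, orange points Snora, filled where the adjusted p was under 0.05, and the dotted line is at 100 bases. Snord members left of the line have medians of -1.89 and -1.93, those right of it -0.37 and 0.04.

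Some box H/ACA genes fell over differentiation as well, and the number called depended more on single libraries. In WT 18 of 32 Snora members were called lower and none higher, and the class median on the log2 scale was -1.65. In 6A 11 were called lower and none higher, and the class median was -1.09. The shares of all genes called lower, 36.4% and 36.1%, lie below the first of these (56.3%) and near the second (34.4%). The count called in WT was 15 without WT day 0 replicate 1 and 30 without its replicate 2, and the median was -0.68 and -2.17. It was 8 without WT day 14 replicate 2. In 6A the count was 25 without either WT day 0 library, which enter that comparison only through the shared estimate of spread, and 7, 5 and 4 without 6A day 0 replicate 1, 6A day 0 replicate 2 and 6A day 14 replicate 2. DESeq2 called 24 lower in WT and 15 in 6A. Of the members called, 10 were lower in both genotypes, which is 55.6% of the WT list and 90.9% of the 6A list. The same shares over all genes tested were 87.4% and 88.3%.

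Snora61, which overlaps an exon of the noncoding host Snhg12, had the smallest adjusted p of its class in both genotypes. It stood at 39.7 and 19.8 CPM in WT at day 0, 20.8 and 23.3 in 6A at day 0, 6.15 and 5.30 in WT at day 14, and 8.42 and 5.22 in 6A at day 14. All day 14 values were below all day 0 values. The log2 fold change was -2.36 ± 0.35 in WT (adjusted p = 0.00017, edgeR) and -1.69 ± 0.34 in 6A (adjusted p = 0.0014).

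Snora78, Snora69, Snora16a and Snora2b were also among the 6 members with the smallest adjusted p in both genotypes. Snora78 changed by -1.82 ± 0.32 in WT and -1.51 ± 0.31 in 6A on the log2 scale, Snora69 by -2.02 ± 0.39 and -1.37 ± 0.36, Snora16a by -1.70 ± 0.35 and -1.12 ± 0.35, and Snora2b by -1.62 ± 0.37 and -1.44 ± 0.36. The 4 most abundant Snora members, Snora81, Snora74a, Snora23 and Snora64, did not pass. Snora81 had 168 and 60.9 CPM in WT at day 0, 104.8 and 114.7 in 6A at day 0, 54.6 and 47.8 in WT at day 14, and 87.6 and 58.4 in 6A at day 14. Its days did not overlap within either genotype, but WT day 0 replicate 2 lay below 6A day 14 replicate 1. The log2 fold change of Snora81 was -1.15 ± 0.51 in WT (adjusted p = 0.095, edgeR) and -0.59 ± 0.50 in 6A (adjusted p = 0.34).

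Snora74a went from 172 and 59.7 CPM to 51.4 and 42.7 in WT and from 93.8 and 97.0 to 58.2 and 44.0 in 6A. Snora23 went from 107 and 37.8 to 34.3 and 33.5 in WT and from 60.4 and 58.4 to 56.2 and 39.0 in 6A. Snora64 went from 117 and 40.8 to 36.7 and 38.8 in WT and from 52.0 and 64.7 to 44.8 and 31.8 in 6A. In each of the 3, WT day 0 replicate 1 was the highest of the 8 libraries, and the adjusted p lay between 0.071 and 0.12 in WT and between 0.17 and 0.59 in 6A. Snora43, whose symbol is not unique, was called lower in WT (-2.47 ± 0.59, adjusted p = 0.012, edgeR) but missed the threshold in 6A (-1.57 ± 0.58, adjusted p = 0.058).

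The ratio of summed Snord to summed Snora counts, in which library size cancels, was 0.523 and 0.874 in WT at day 0, 0.663 and 0.632 in 6A at day 0, 0.911 and 0.846 in WT at day 14, and 0.708 and 0.706 in 6A at day 14. At day 14 both WT values were above both 6A values, and at day 0 the WT values lay on either side of the 6A values. The medians of the classes did not separate the genotypes at day 14. On the log2(CPM + 0.5) scale, the Snord median minus the Snora median was -2.13 and -1.59 in WT and -2.40 and -1.77 in 6A. With 2 libraries against 2, an exact two-sided permutation test cannot go below p = 0.333. Without Snord17 and Snora81, the most abundant member of each class, the day 14 ratios were 0.708 and 0.715 in WT and 0.578 and 0.627 in 6A.

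Most host genes fell over differentiation as well. Of the 63 hosts, 53 were called lower in WT and 54 in 6A, and 3 were called higher in each. The shares over all genes tested were 36.4% lower and 37.7% higher in WT, and 36.1% and 34.9% in 6A. The median log2 fold change over the 85 members was -1.63 in WT and -1.42 in 6A, and that of their hosts -0.98 and -0.82. Across these members the changes of member and host had a Spearman rho of 0.40 in WT and 0.46 in 6A, a description over members that in part share a host. Short Snord members changed further down than their hosts (median difference -0.31 in WT and -0.48 in 6A), and long ones less far (0.43 and 0.60).

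Host and member could differ widely at one locus. Rpl13a changed by -0.66 ± 0.15 in WT and -0.45 ± 0.15 in 6A on the log2 scale, while its 4 members fell by at least 1.48. 2410006H16Rik changed by -0.49 ± 0.13 and -0.82 ± 0.13, and its members Snord49a, Snord49b and Snord65 fell by more than 2 in each genotype. The reverse held for Snord22, which differed by -0.37 and -0.12 over days while its host Snhg1 changed by -1.39 ± 0.14 and -1.75 ± 0.14. In Rps12, Snord100 and its host moved alike, the host by -2.18 ± 0.15 and -2.38 ± 0.16.

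4 hosts with a member of each class, Snhg12, Eif4a2, Rps12 and Ncl, allowed the classes to be set side by side within 1 gene. Snhg12 changed by -2.47 ± 0.17 in WT and -2.34 ± 0.17 in 6A. Its box C/D member Snord99 changed by -3.21 ± 0.43 and -2.61 ± 0.41, and its box H/ACA member Snora61 by -2.36 and -1.69. Snora44, the other H/ACA member, differed by -1.85 ± 0.74 and -1.12 ± 0.73 and did not pass in either genotype (adjusted p = 0.073 and 0.23, edgeR). In Eif4a2, a translation factor gene, Snord2 changed by -1.55 ± 0.27 in WT and -1.97 ± 0.28 in 6A, while Snora81 did not pass and the host differed by -0.12 ± 0.11 (adjusted p = 0.35) and -0.44 ± 0.11. In Rps12 the box C/D member Snord100 changed by -2.45 and -1.99, and the H/ACA member Snora33 by -2.13 ± 0.59 in WT (adjusted p = 0.018, edgeR), with -1.48 ± 0.57 in 6A (adjusted p = 0.058). In Ncl, which encodes nucleolin, Snord82 changed by -1.86 ± 0.62 and -1.80 ± 0.54, and Snora75 differed by -1.83 ± 0.71 (adjusted p = 0.052, edgeR) and -1.62 ± 0.69 (adjusted p = 0.071). The box C/D member thus had the lower fitted value in each of the 4 hosts, by little in Ncl. The difference between members of a host was not tested.

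Snord members in introns and Snord members overlapping exons both fell. Among Snord members, 21 of 33 in an intron and 19 of 26 overlapping an exon were called lower in WT, with medians of -1.63 and -1.64. In 6A the numbers were 21 and 17, with medians of -1.60 and -1.88. Snord members in ribosomal protein genes were called lower in 14 of 18 cases in each genotype (medians -2.07 and -1.99), and those in other hosts in 26 and 24 of 39 (medians -1.61 and -1.78). For Snora members, 6 of 12 in an intron and 9 of 17 overlapping an exon were called lower in WT (medians -1.50 and -1.62). In 6A 6 and 3 were called lower (medians -0.91 and -1.12). Snora members in ribosomal protein genes were called lower in 7 of 10 cases in WT and 2 of 10 in 6A. Those in other hosts were called lower in 8 and 7 of 18. Beside these counts, 36.4% of all genes tested were called lower in WT and 36.1% in 6A.

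**Figure D4:**
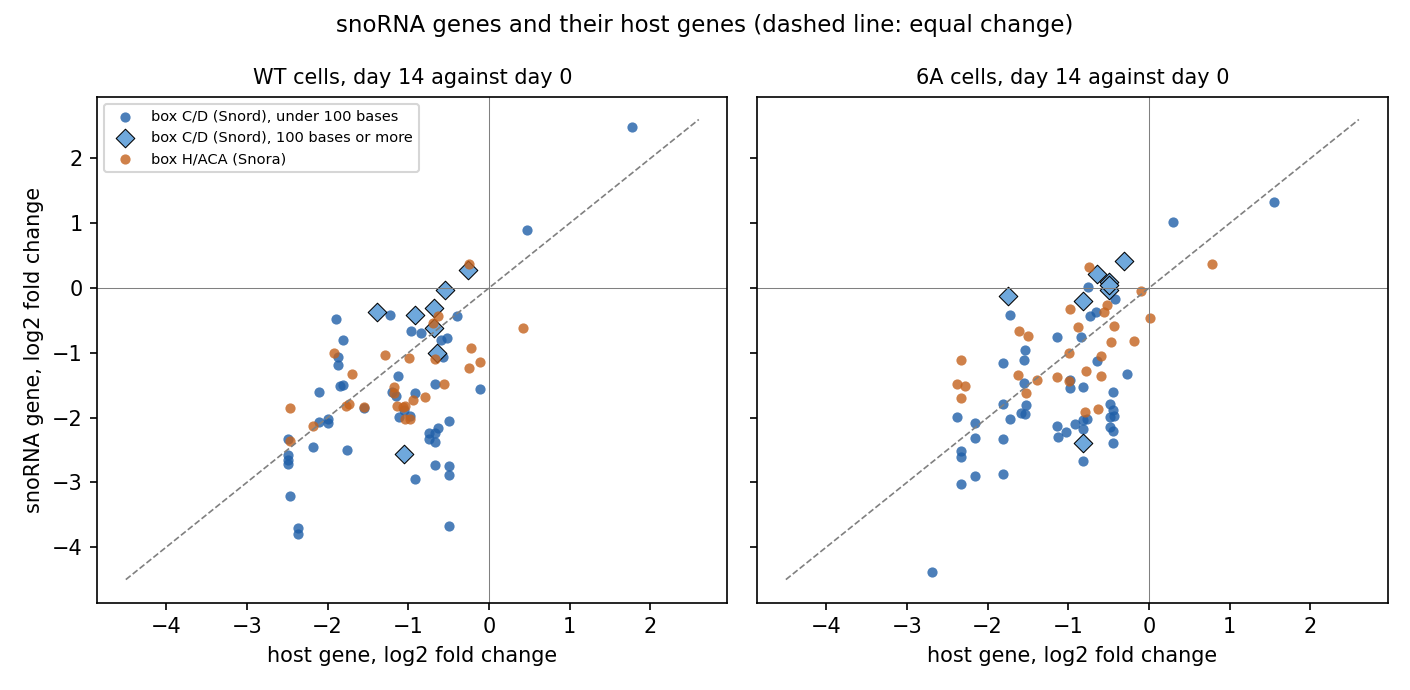
Log2 fold change at day 14 against day 0 of each snoRNA gene (vertical axis) and of its host gene (horizontal axis) for 85 members in WT (left) and 6A (right); diamonds are Snord members of 100 bases or more and the dashed line marks equal change. Short Snord members lie mostly below the line (median difference -0.31 and -0.48) and long ones mostly above it (0.43 and 0.60).

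The 6A mutant and WT cells did not differ in any member past the test. At day 0 the edgeR test called 0 of 61 Snord and 0 of 32 Snora members, against 1.5% of all genes (0.987% higher and 0.516% lower), and DESeq2 called 0 as well. At an unadjusted p under 0.05 there were 2 Snord members and no Snora member. They were Snord55, with 8.77 and 9.73 CPM in WT and 6.64 and 5.45 in 6A (-0.63 ± 0.22, adjusted p = 0.17), and Snord47, with 5.44 and 2.61 in WT and 5.71 and 6.98 in 6A (0.74 ± 0.32, adjusted p = 0.26). The median difference between 6A and WT was -0.06 for Snord and -0.27 for Snora members, and 28 of 32 Snora members were fitted lower in 6A, against 48.1% of all genes.

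That direction rested on WT day 0 replicate 1. The WT libraries of day 0 also enter the WT comparison over days and the interaction. Without it the Snora median was 0.58, with 2 members called higher in 6A, and the Snord median 0.082. Without WT day 0 replicate 2 the Snora median was -0.85, with 9 members called lower. The Snord median was -0.295 without WT day 0 replicate 2, opposite in sign to that without replicate 1.

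At day 14 no member was called by edgeR or DESeq2, against 13.2% of all genes by edgeR (5.18% higher and 8.04% lower). Snord70 and Snord53 and, among Snora, Snora47 had an unadjusted p under 0.05. Snora47, in an intron of the zinc finger gene Zbed3, had 7.41 and 4.16 CPM in WT at day 0, 4.94 and 6.18 in 6A at day 0, 3.83 and 3.48 in WT at day 14, and 8.90 and 5.61 in 6A at day 14. At day 14 both 6A values were above both WT values, while the genotypes overlapped at day 0. The difference at day 14 was 0.99 ± 0.32 on the log2 scale (adjusted p = 0.053, edgeR), and the host differed by 0.17 ± 0.14. Snord70 and Snord53 were fitted higher in 6A by 1.2 ± 0.46 (adjusted p = 0.11) and 0.87 ± 0.40 (adjusted p = 0.19). The median difference was 0.06 for Snord and 0.19 for Snora members, and it was -0.11 for Snora without 6A day 14 replicate 1.

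In the genotype by day interaction, which asks whether the change over days differed between 6A and WT, edgeR and DESeq2 called 0 members, against 4.64% of all genes by edgeR (1.44% higher and 3.2% lower). One member, Snora47, had an unadjusted p under 0.05 (0.99 ± 0.44, adjusted p = 0.24). The median was 0.16 for Snord and 0.53 for Snora members, and 2 of 32 Snora members had a fitted interaction below 0, against 50.6% of all genes. Without WT day 0 replicate 1 the Snora median was -0.26 and the Snord median -0.11. Without WT day 0 replicate 2 the Snora median was 1.11, and 9 members were called. The interaction and the comparisons above share all of their libraries.

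Transcripts of the proteins of both snoRNA particles fell over differentiation. All 4 box C/D core proteins and all 4 box H/ACA core proteins were called lower at day 14 in both genotypes. The methyltransferase gene Fbl changed by -1.91 ± 0.17 in WT and -1.38 ± 0.17 in 6A, Nop56 by -2.11 ± 0.12 and -1.81 ± 0.12, Nop58 by -1.80 ± 0.13 and -1.72 ± 0.13, and Nhp2l1, which binds the box C/D fold, by -1.25 ± 0.13 and -1.31 ± 0.13. Dkc1, the pseudouridine synthase of H/ACA particles, changed by -2.86 ± 0.12 in WT and -2.34 ± 0.12 in 6A. Its partners Nhp2, Nop10 and Gar1 fell by between 1.46 and 2.58 in WT and between 1.35 and 2.06 in 6A.

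Among 13 assembly factors 13 were called lower in WT and 12 in 6A, among 7 trimming and debranching factors 7 in each, and among 14 nucleolar and ribosomal RNA synthesis factors 14 in each. Over all genes 36.4% were called lower in WT and 36.1% in 6A. Between genotypes at day 14 the test called higher in 6A 0 of the 4 box C/D core genes, 1 of the 4 H/ACA core genes, 1 of 13 assembly factors, 0 of 7 trimming factors and 2 of 14 nucleolar factors, against 5.18% of all genes, and called none of them lower. Of the 7 pluripotency genes 4 were called higher in 6A on that day as well, and their part in this was not tested. Dkc1 was higher in 6A than in WT, with 88.6 and 99.5 CPM against 61.9 and 70.9 (0.50 ± 0.12, adjusted p = 0.012, edgeR). The assembly helicase gene Ruvbl1 was higher by 0.52 ± 0.13, the ribosomal RNA methyltransferase gene Nop2 by 0.43 ± 0.11 and Utp20, a factor of the small-subunit processome, by 0.38 ± 0.11. For Ruvbl1 and Nop2 the interaction was also called (0.76 ± 0.18 and 0.58 ± 0.15).

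Other small noncoding RNAs did not all follow. Of 9 Cajal body RNAs, which guide modification of spliceosomal RNAs, 3 were called lower and 1 higher in WT, and 1 lower and 2 higher in 6A. Among all genes tested 36.4% were called lower and 37.7% higher in WT, and 36.1% and 34.9% in 6A. Scarna10 rose from 38.5 and 25.2 CPM to 72.8 and 59.6 in WT and from 31.3 and 24.5 to 60.3 and 45.5 in 6A, with all day 14 values above all day 0 values. Of 18 snoRNA host transcripts, 11 were called lower and 3 higher in WT and 13 and 3 in 6A. Among them Gas5 changed by -1.85 ± 0.11 and -1.81 ± 0.11, and Rian, the imprinted host of a large box C/D cluster, rose by 2.03 ± 0.11 and 2.10 ± 0.11. Of 128 microRNA rows, 51 were called higher and 25 lower in WT, and 58 and 26 in 6A. Of 7 other small structural RNAs tested, 1 was called lower in WT and 2 in 6A, and none higher. Among these 7, the telomerase RNA Terc, itself an H/ACA RNA, changed by -3.16 ± 0.16 in WT and -2.65 ± 0.16 in 6A. At day 0 it was lower in 6A, with 86.3 and 87.4 CPM against 137 and 164 in WT (-0.79 ± 0.14, adjusted p = 0.016, edgeR).

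The tables also split counts by parental allele, a readout the choice of members did not use. Counts assigned to 129 or CAST made up 32.3% of all member counts, and 42 members had at least 80 of them, 28 Snord and 14 Snora. The members fell into 2 sets. For 29 of them over 90% of allele counts were 129, the lowest at 95.04%, and for the other 13 the 129 share lay between 29.4% and 57.7%. No member lay in between. Over all genes 80.4% of allele counts were 129, and of the 23 distinct hosts of the first set with at least 80 allele counts at day 0, 18 were over 90% 129 too. All 8 such hosts of the second set lay between 20% and 80%. In 26 members the 129 share was over 80% in every library with allele counts.

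The 2 X-linked members with enough allele counts differed from each other. Snord61 lies in an intron of Rbmx. Its 129 share was 46.6% at day 0 (34 of 73 allele counts over 4 libraries, exact 95% interval 34.8% to 58.6%) and 2.17% at day 14 (1 of 46, interval 0.055% to 11.5%). At day 14 the share was 0 in 3 libraries and 5.88% in WT replicate 2; at day 0 it ranged from 11.1% of 9 counts to 61.3% of 31 counts. The host Rbmx went from 48.7% to 8.51%. Snora70, in the ribosomal protein gene Rpl10, was 99.6% 129 at day 0 (232 of 233) and 100% at day 14 (88 of 88, interval 95.9% to 100%), while Rpl10 itself was 65.5% and 38.5%. The total count of Snord61 did not change past the test (-0.43 ± 0.56 in WT and -0.44 ± 0.53 in 6A). Intervals cover counting error only, and the method that assigned reads to alleles is not described in the sources used here.

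Autosomal members of the second set lay on chromosomes 2, 7, 9, 11 and 13. Snord34, Snord33 and Snord32a of Rpl13a on chromosome 7 belonged to it. Snord34 was 34.5% 129 at day 0 (interval 31.3% to 37.9%) and 34.2% at day 14, against 66.8% and 69.3% for Rpl13a, so member and host lay on opposite sides of equal shares; the part of read assignment in this was not tested. Snora23 in Ipo7 was 52.0% at day 0 and 43.9% at day 14, against 50.2% and 47.9% for its host. Snora65, which has a close annotated copy, was 36.0% at day 0 (interval 31.1% to 41.0%) and 21.5% at day 14 (16.0% to 28.0%). Each of its 4 day 14 libraries, from 17.7% to 25.0%, was below each of its 4 day 0 libraries, from 29.3% to 45.0%. Its host Rpl12 went from 55.3% to 36.2%.

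**Figure D5:**
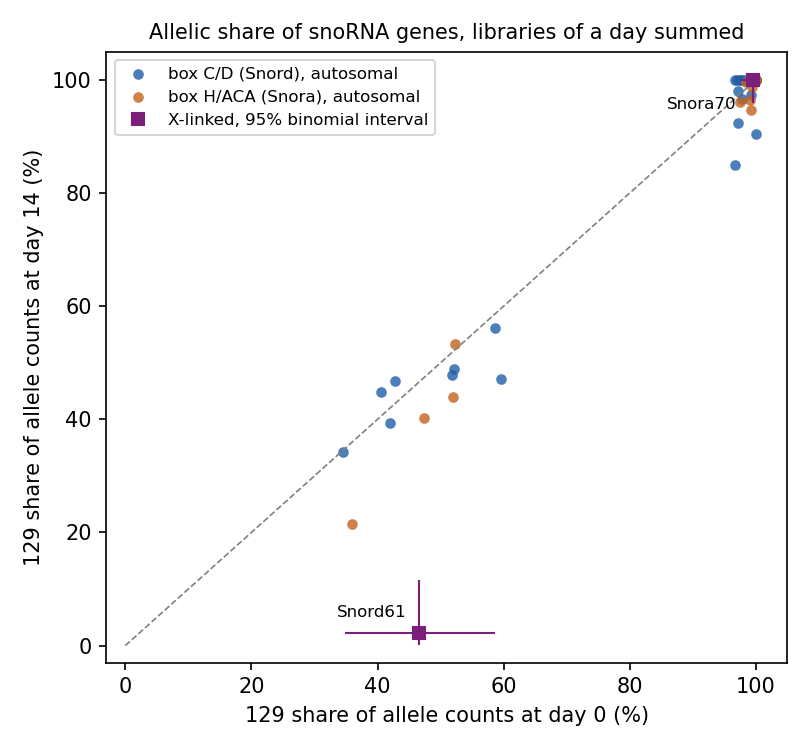
129 share of allele counts in percent at day 14 (vertical axis) and day 0 (horizontal axis) for 42 members with at least 80 allele counts, summed over the 4 libraries of a day; squares are X-linked members with exact 95% binomial intervals and the dashed line marks equal shares. Snord61 drops from 46.6% to 2.17%, and Snora70 lies at the upper right, at 99.6% and 100%.

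At the edge of the selection, Snord123 with 41 and Snord71 with 43 summed counts lay just inside the minimum of 40, and Snord98 with 27 and Snord38a with 19 just outside. Snord71 had 1 and 5 counts in WT at day 0, 8 and 2 in 6A at day 0, 0 and 11 in WT at day 14 and 15 and 1 in 6A at day 14, so its replicates differed more than its groups. Of the 17 rows outside, 13 were listed at 0 in every library. A count of 0 in a library allows up to 0.193 to 0.368 CPM (3 counts of the total), for counting error only.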

How the data were processed

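RNA-seq gene tables of 8 libraries were used, each with deposited counts per gene for all reads and for reads assigned to the CAST and 129 alleles. Per the submitters' processing notes the authors used cutadapt 1.4.2, STAR 2.7.10a and the mm10 build. Not given in the sources used here: counting tool, strand setting, annotation, rule for multiply mapped reads, and allele assignment. The library kit keeps strand, per the labels' protocols. Groups and replicate numbers came from the sample titles, and the protocol calls the replicates biological; whether they came from separate cultures is not stated, so p-values measure the spread between these libraries. The series' design text names day 7 where the sample labels give day 14, and day 14 was used.

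All counts were fitted with edgeR 4.0.16 (limma 3.58.1, R 4.3.3): TMM scaling, 1 coefficient per group, robust quasi-likelihood test, and Benjamini-Hochberg adjustment over 15700 genes with at least 40 summed counts. That minimum equals the membership rule, so every member was tested. CPM values use library totals (8146684 to 15540163 counts) after TMM scaling; class sums are counts over plain totals. Log2 fold changes are given with standard errors. The test was checked on simulated data. Alternatives were DESeq2 1.42.0, other scalings and filters, a replicate term, fits of the compared groups alone, and leaving out each library. Lengths, hosts, boxes and sequences came from GENCODE M21 by symbol.

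Named genes are the 6 most abundant members of each class, up to 6 called members per class, contrast and direction, members beside the count minimum, their hosts, core proteins and leading called genes of each list, and members with extreme allele shares; others were picked after their values were seen. A box H/ACA gene that this rule names is not reported here; it is included in the class counts and medians. Members and lists were chosen with earlier results of these data known. The alternative for the length split was chosen after seeing the data.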

Additional observations from a re-analysis of the deposited data

How the results depend on the processing

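None of the other settings called a member between 6A and WT at day 0 or in the interaction except when a library was left out. At day 14 the number of Snora members called between genotypes was 1 with RLE size factors and with no filter, and 3 with only the compared groups fitted. The Snora count for 6A over days was 7 with no filter and 24 with only the compared groups. The Snord median for WT over days was -1.41 with total counts only and -1.78 for members with at least 100 summed counts. Without the most abundant member, the Snord share of counts was 0.0369% in 6A at day 0, 0.0222% in WT at day 14 and 0.0209% in 6A at day 14; the Snora share was 0.0615% in 6A at day 0 and 0.0312% in WT at day 14; and the Snord to Snora ratio was 0.601, 0.711 and 0.603 in 6A at day 0, WT at day 14 and 6A at day 14. With members of at least 100 summed counts it was 0.693 in 6A at day 14. The cause of these shifts was not tested.

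Leaving out each library in turn gave these lowest and highest numbers of members called. For 6A against WT they were 0 to 1 Snord and 0 to 9 Snora at day 0, 0 to 0 Snord and 0 to 2 Snora at day 14, and 0 to 0 Snord and 0 to 9 Snora in the interaction. Over days they were 33 to 42 Snord and 8 to 30 Snora in WT, and 33 to 40 Snord and 4 to 25 Snora in 6A. On either side of 100 bases they were 32 to 41 and 1 to 3 in WT and 32 to 38 and 1 to 1 in 6A. The medians ran from -0.30 to 0.082 (Snord) and -0.85 to 0.58 (Snora) at day 0, 0.0091 to 0.090 and -0.11 to 0.46 at day 14, -0.11 to 0.30 and -0.26 to 1.11 in the interaction, -1.99 to -1.53 and -2.17 to -0.68 over days in WT, and -1.78 to -1.62 and -1.30 to -0.86 in 6A. A group left with 1 library was taken to vary like the others.

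Across all genes tested, the replicate numbers were not shown to pair the libraries. Deviations of same-numbered libraries correlated between 0.0033 and 0.228 across pairs of groups. Among Snora members, replicate 1 was higher for 32 of 32 in WT at day 0, 26 in WT at day 14 and 31 in 6A at day 14. It was higher for 11 of 32 in 6A at day 0. Whether the numbers pair the libraries for Snora members was not tested. With a replicate block, 19 Snora members were called in 6A over days, 27 in WT over days and 1 between genotypes at day 14; the block moved no other count of calls by over 1.5 times. Few counts in some members limit what can be seen, and so does the spread between libraries. The median biological coefficient of variation was 0.188 for members and 0.109 for all genes.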
